A study of Brassica rapa with 23 samples.

Results

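Leaf discs of Chinese cabbage (Brassica rapa subsp. pekinensis) treated for 180 min with chitin were compared directly with discs treated for 180 min with flg22, the 2 elicitors of the study. The comparison rests on 6 of the 23 RNA-Seq libraries, the 3 labelled chitin, 180 min and the 3 labelled flg22, 180 min, and on those 21978 of 41020 genes that reached an FPKM of 1 in no fewer than 3 of these 6. FPKM is the number of fragments assigned to a gene scaled to its length and to the total of the library. A gene was called higher or lower with chitin at a Benjamini-Hochberg adjusted p under 0.05 in limma, over all tested genes, and a difference of at least 2-fold (1 on the log2(FPKM + 1) scale).

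The chitin group received 100 μg per ml chitin and the flg22 group 100 nM flg22, and the libraries set beside them had received water. All plants were wild-type seedlings of Norang, a commercial cultivar, 17 days old and grown in short days of 10 h light and 14 h dark, and the discs came from the 1st true leaf. Each library was made from a pool of 15 discs of 100 mm2, and the labels name the libraries of a group as biological replicates. Besides the 6 libraries, 3 chitin and 3 flg22 libraries at 30 min, 6 water libraries at 180 min and 5 at 30 min are used below as a setting. Each elicitor had its own water set, apart from 1 water library at 30 min that served both, and the labels do not name the set of a water library. An elicitor and any difference between the sets therefore cannot be told apart in the direct comparison, and the water libraries are used here as 1 group. Discs are a mixture of leaf cells, and a change in the number of cells of a type and a change of RNA per cell cannot be told apart in them.

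Chitin, a polymer of the fungal cell wall, and flg22, a peptide of bacterial flagellin, are microbe-associated molecular patterns (MAMPs). In Arabidopsis thaliana, chitin is bound by receptor-like kinases with extracellular LysM domains (LYK5, with CERK1 as the signaling partner), and flg22 by FLS2, a receptor kinase with leucine-rich repeats. Both kinds of receptor trigger a calcium influx, reactive oxygen species and kinase cascades, and both reprogram transcription, the response known as pattern-triggered immunity (PTI). In the Brassicaceae, PTI includes the synthesis of indole glucosinolates, sulfur-rich compounds derived from tryptophan.

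The 6 libraries were of like depth, 4.24 to 5.27 gigabases of aligned bases with chitin and 4.49 to 5.06 with flg22, and 31.5 to 33.2% of genes with chitin and 31.6 to 32.0% with flg22 were listed at 0. Replicates were tighter with flg22: the median SD of a gene on the log2(FPKM + 1) scale was 0.187 with chitin, 0.138 with flg22 and 0.232 in the 6 water libraries. The 1st principal component of the 6 libraries (60.6% of the variance) separated chitin from flg22, and the 2nd (21.9%) set chitin replicate 1 apart from chitin replicate 3. Across tested genes the libraries of a group correlated at r = 0.959 to 0.982 with chitin and 0.984 to 0.988 with flg22, and libraries of different groups at 0.935 to 0.957. The gene identifiers of the files carry no names, so names and roles below are those the study gives, and all other genes are described by identifier only.

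At 180 min 694 genes were called higher with chitin than with flg22 (3.16% of the tested genes) and 697 lower (3.17%). Without the fold threshold 1756 genes were higher (7.99%) and 2752 lower (12.5%), and the median difference over all tested genes was -0.11 on the log2 scale. Most differences were moderate. Of the called genes, 84 were at least 4-fold higher and 57 at least 4-fold lower, and 7 in each direction were at least 8-fold apart. The median difference was 1.33 for the higher genes and -1.28 for the lower genes on the log2 scale. The 3 chitin libraries lay above the 3 flg22 libraries without overlap in 693 of the 694 higher genes and below them in all 697 lower genes, which follows largely from the calls. Over all tested genes 15.1% lay above and 28.4% below without overlap.

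The balance between the directions depended on the scaling. Median-ratio scaling, which moved the median of all tested genes to 0.00, gave 884 higher and 489 lower genes, so that 64.4% of the calls were higher, against 49.9% with FPKM as deposited and 42% with TPM. All 694 higher genes and 489 of the 697 lower genes were also called in the same direction after median-ratio scaling. Leaving out chitin replicate 2 gave 404 higher and 414 lower genes, and leaving out chitin replicate 1 gave 891 higher genes and leaving out chitin replicate 3 gave 950 lower genes.

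The comparison was also run as a difference of responses, (chitin minus its water) minus (flg22 minus its water), for the 8 ways of giving each elicitor 1 water library of each replicate number. With the libraries titled Sample 7, 15 and 23 on the chitin side and Sample 3, 11 and 19 on the flg22 side, 40 genes were called higher and 35 lower in limma. The median difference was then 1.29 for the 694 higher genes and -0.98 for the 697 lower genes on the log2 scale, against -0.01 over all tested genes. The opposite division gave 623 higher and 1249 lower genes, and over all 8 the counts ran over 6 to 1115 higher and 10 to 1249 lower. The number of calls in a comparison through water thus depends on the division, which the labels do not give.

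**Figure D1:**
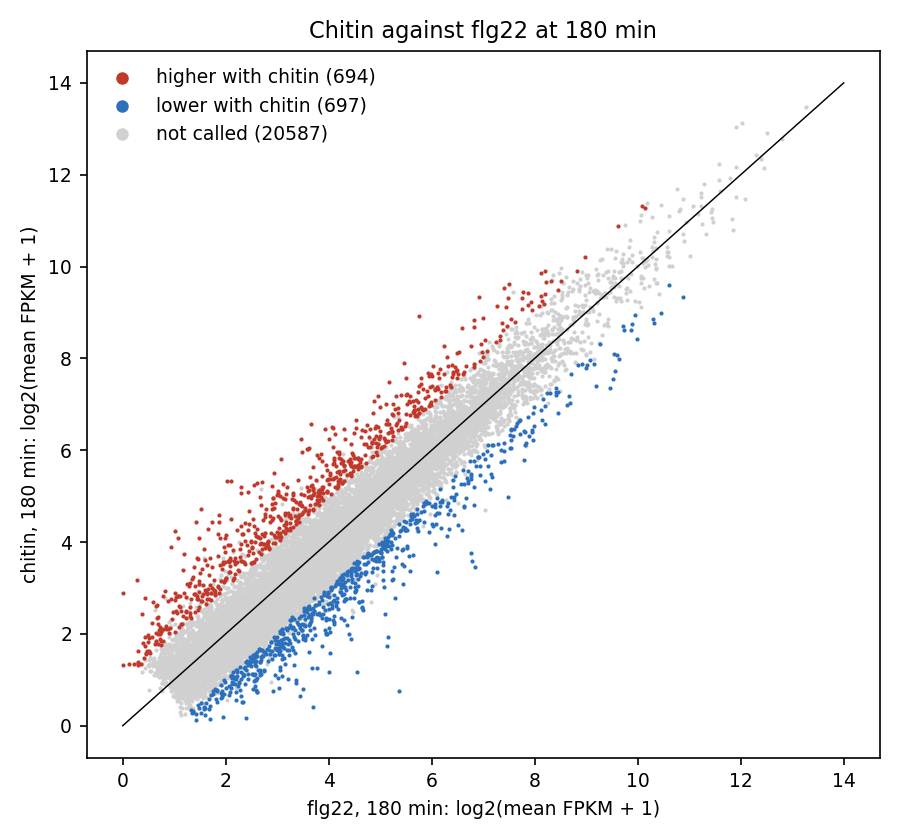
Mean level of each tested gene at 180 min with chitin (vertical axis) and with flg22 (horizontal axis), both as log2(mean FPKM + 1). The line marks equal levels, red points are the 694 genes called higher with chitin, blue points the 697 called lower and grey points the rest; called genes lie along both sides of the line over the whole range of levels.

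The higher genes made up 6.56, 7.2 and 6.46% of the summed FPKM of the chitin libraries, and 2.78, 2.72 and 2.33% of that of the flg22 libraries. The lower genes made up 2.32, 1.88 and 1.85% with chitin and 5.48, 5.25 and 5.67% with flg22. The median of the mean FPKM of the higher genes was 31.4 with chitin, 10.3 with flg22 and 9.25 with water. For the lower genes it was 5.86 with chitin, 17.7 with flg22 and 19.6 with water. In both directions it was thus the flg22 level that lay near the water level in the middle of the set.

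The same was seen gene by gene against the range of the 6 water libraries at 180 min, taken as 1 group for both elicitors. Of the 694 higher genes, 353 (50.9%) had all chitin libraries above every water library while the flg22 libraries overlapped the water range. In 165 (23.8%) the libraries of both elicitors lay above the range, in 82 (11.8%) chitin overlapped it and flg22 lay below, and in 86 (12.4%) both overlapped it. The remaining 8 were split between 4 with chitin above and flg22 below the range and 4 with both below. Of the tested genes not called, 5.73% had chitin above and flg22 overlapping the range, and 15% had both above. In 3.72% chitin overlapped it and flg22 lay below, and in 40.8% both overlapped it. The chitin libraries lay wholly above the water range in 75.2% of the higher genes and in 21.8% of all tested genes. The flg22 libraries lay wholly below it in 13.0% of the higher genes and in 19.9% of all tested genes.

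Of the 697 lower genes, 292 (41.9%) had chitin below every water library and flg22 within reach of the water range, and in 139 (19.9%) both elicitors lay below it. In 153 (22%) both overlapped the range. Of the tested genes not called, 10.3%, 16.4% and 40.8% fell in these classes, in the same order. The share with both below was thus near that of the genes not called. Chitin lay wholly below the water range in 64.4% of the lower genes and in 27.2% of all tested genes. All flg22 libraries lay above all water libraries in 113 lower genes (16.2%, against 22.9% of all tested genes), namely 87 in which chitin overlapped the range, 18 in which chitin lay below it and 8 in which chitin lay above it too. The water libraries themselves varied widely. The difference between the elicitors was larger than the whole range of the 6 water libraries on the log2 scale in 390 of the higher genes (56.2%) and 428 of the lower genes (61.4%), and in 17% of all tested genes.

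The values at 30 min come from other libraries than those that made the calls at 180 min. Of the 694 higher genes, 475 (68.4%) were called above water with chitin at 30 min, where 8.2% of all tested genes were, and 490 (70.6%) were called above water with flg22, where 9.49% were. Their median difference from water at 30 min was 2.46 with chitin and 2.77 with flg22 on the log2 scale, against -0.47 and -0.48 over all tested genes. At 180 min the median difference from water was 1.63 with chitin and 0.23 with flg22. With each elicitor, most of these genes had thus been raised at 30 min, and at 180 min the middle of the set was near the water level with flg22 and above it with chitin. The same water libraries were used here for both elicitors.

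Of the 697 lower genes, 298 (42.8%) were called below water with chitin at 30 min and 297 (42.6%) with flg22, where 10.4% of all tested genes were below water with chitin and 16% with flg22. The median difference from water was -0.96 with chitin and -0.85 with flg22 at 30 min, and -1.32 with chitin and 0.01 with flg22 at 180 min. As in the higher genes, it was with flg22 that the middle of the set was near the water level at 180 min.

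**Figure D2:**
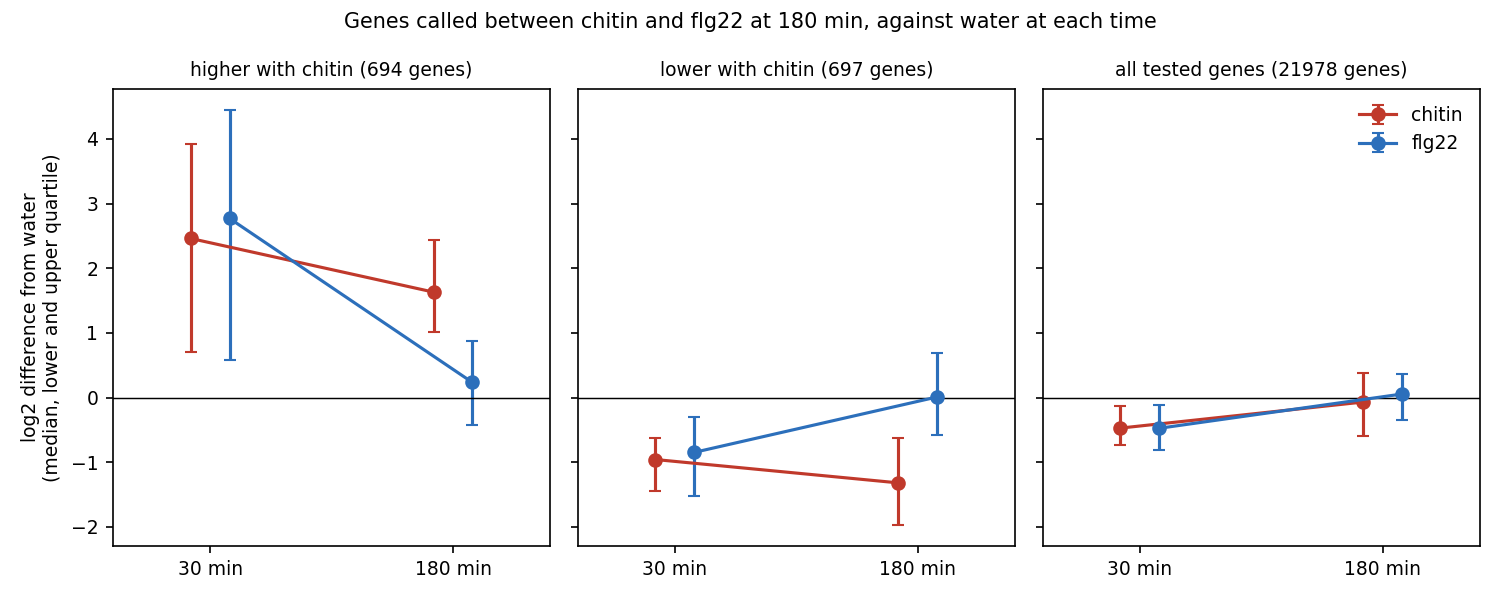
Log2 difference from water (vertical axis) at 30 and 180 min (horizontal axis) for the genes called higher with chitin at 180 min, the genes called lower and all tested genes, with chitin in red and flg22 in blue. Points are medians over genes and bars run from the lower to the upper quartile; in the higher genes both elicitors start at medians of 2.46 and 2.77 and part by 180 min (1.63 with chitin, 0.23 with flg22).

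The same genes can be counted from the early responses. The 2085 genes called above water with flg22 at 30 min had a median chitin minus flg22 difference of -0.44 at 30 min and of 0.55 at 180 min, and 490 of them (23.5%, against 3.16% of all tested genes) were called higher with chitin at 180 min and 11 (0.528%, against 3.17%) lower. For the 1802 genes called above water with chitin at 30 min the medians were -0.36 at 30 min and 0.64 at 180 min. The 3522 genes called below water with flg22 at 30 min had a median difference of 0.35 at 30 min and of -0.36 at 180 min, and 297 of them (8.43%, against 3.17% of all tested genes) were called lower with chitin at 180 min and 17 (0.483%, against 3.16%) higher. For the 2282 genes called below water with chitin at 30 min the medians were 0.14 at 30 min and -0.45 at 180 min. Of these, 298 (13.1%) were called lower with chitin at 180 min and 3 (0.131%) higher. The medians at 30 min share libraries with the choice of the genes. The 490, 297 and 298 genes are those counted above and add no further support.

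At 30 min itself few genes passed the same thresholds, with 13 genes higher (0.0592%) and 19 lower (0.0865%) with chitin than with flg22, and with 409 and 414 at an unadjusted p under 0.05. These differences were fitted on the 12 chitin and flg22 libraries of both times, over genes filtered at 180 min. The counts are therefore not like for like with the 694 and 697 of the fit of 6 libraries. None of the 694 higher genes was called higher at 30 min in limma and 2 were called lower, and in 451 of them (65.0%, against 50.8% of all tested genes) the flg22 mean lay above the chitin mean at that time. The change of the difference between the times was tested as an interaction over the 12 chitin and flg22 libraries, in which no water library enters. In 750 genes (3.41%) the chitin minus flg22 difference was larger at 180 than at 30 min, and in 686 genes (3.12%) it was smaller. These held 439 of the 694 higher genes and 301 of the 697 lower genes, counts that share the 180 min libraries with the calls. Without chitin at 30 min replicate 1 the interaction was called in 2634 genes in place of 1436, and without chitin at 180 min replicate 2 in 804.

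**Figure D3:**
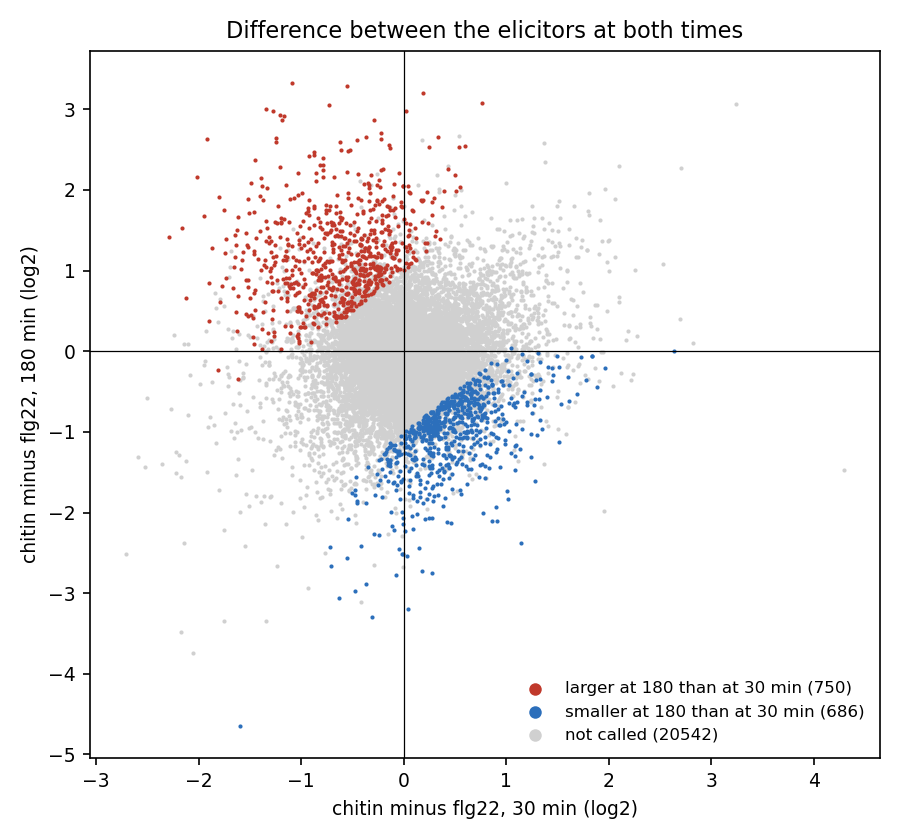
Chitin minus flg22 difference of each tested gene at 30 min (horizontal axis) and at 180 min (vertical axis), on the log2(FPKM + 1) scale. Red and blue points are the 750 and 686 genes whose difference was larger or smaller at 180 than at 30 min in the interaction test; many red points lie in the upper left, below 0 at 30 min and above 0 at 180 min.

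The receptor homologs were chosen by homology and not from these libraries. All 4 homologs of the chitin receptors were higher with chitin at an adjusted p under 0.05, 1 of them past the 2-fold threshold, where 7.99% and 3.16% of all tested genes were. Their median difference was 0.71 on the log2 scale. With all 23 libraries in the fit, LYK5 alone of the 4 kept an adjusted p under 0.05, and the others had 0.239 (Bra031293), 0.112 (Bra002021) and 0.0728 (Bra009660). The largest was that of Bra021861 (chromosome A04, 15018935 to 15023059 in the v1.5 build of the files), the homolog of LYK5, the kinase that binds chitin in Arabidopsis. It had 9.95, 8.24 and 10.8 FPKM with chitin and 2.22, 2.54 and 1.00 FPKM with flg22, and 1.15 to 3.75 FPKM (median 2.06) in the water libraries. The chitin libraries thus lay above every other library, and the flg22 libraries were within the water range or just below it. The difference was 1.90 ± 0.23 (SE) on the log2 scale with an adjusted p of 0.00411 in limma. At 30 min it was above water with both elicitors (4.53 with chitin and 4.24 with flg22 on the log2 scale), at 61.1, 77.1 and 107 FPKM with chitin and 48.4, 80.6 and 69.2 FPKM with flg22, and there the groups overlapped.

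The homolog of CERK1, the signaling partner of LYK5 (Bra031293), had 36.4, 36.3 and 28.3 FPKM with chitin and 22.8, 25.7 and 20.8 FPKM with flg22, all above the water range of 6.51 to 15.4 FPKM. The difference was 0.52 ± 0.14 (adjusted p = 0.0372, limma). The gene was short of 2-fold and so not called. Leaving out any 1 library other than chitin replicate 3 gave an adjusted p of 0.0602 to 0.131. The 2 homologs of LYM2, a LysM protein of chitin perception, differed by 0.67 ± 0.10 (Bra009660, adjusted p = 0.00698) and 0.75 ± 0.16 (Bra002021, adjusted p = 0.0222). For Bra002021 the adjusted p was 0.0727 without chitin replicate 2, 0.0788 without flg22 replicate 1 and 0.0747 without flg22 replicate 3.

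Of the 8 homologs of receptors for bacterial patterns, 4 passed the filter on low values, and none was called in either direction in limma at 2-fold. BraFLS2 (Bra017563), the homolog of the flg22 receptor, had 12.3, 9.81 and 9.03 FPKM with chitin, 12.0, 13.3 and 12.0 FPKM with flg22 and 8.52 to 16.1 FPKM (median 12.7) with water. The groups overlapped and the difference of -0.24 ± 0.13 did not pass (adjusted p = 0.225). BraEFR2 (Bra002305), a homolog of the receptor for elongation factor Tu, differed by -0.45 ± 0.19 (adjusted p = 0.135), and a homolog of the peptidoglycan-binding LYM1 (Bra016402) by -0.58 ± 0.20 (adjusted p = 0.0795, and 0.026 without chitin replicate 3). The homolog of LORE (Bra031434), a receptor kinase for lipopolysaccharide preparations, was higher with chitin at 57.7, 44.1 and 52.1 FPKM, against 32.2, 32.6 and 34.1 FPKM with flg22. That difference of 0.62 ± 0.12 had an adjusted p of 0.0149 in limma, which was 0.0604, 0.0532 and 0.0504 without flg22 replicate 1, 2 and 3 and 0.187 with all 23 libraries in the fit. The 4 others were not tested, and 2 of them, the second FLS2 homolog Bra022032 and BraEFR1 (Bra006560), were listed at 0 in all 6 libraries.

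All 3 glucosinolate genes described here were higher with chitin at an adjusted p under 0.05 in limma, 2 of them past the 2-fold threshold, where 7.99% and 3.16% of all tested genes were. They were named with these libraries in view, so their direction is not independent evidence. The same holds for the genes measured by qPCR other than the marker BraNHL10 and the reference gene BraEF1alpha. CYP79B3 (Bra030246), the cytochrome P450 that turns tryptophan into indole-3-acetaldoxime at the start of the indole branch, had 79.6, 73.0 and 73.5 FPKM with chitin, against 13.3, 23.4 and 19.8 FPKM with flg22. Water gave 13.7 to 34.6 FPKM (median 18.3), so that flg22 lay in or just under the water range and chitin above it. The difference was 1.98 ± 0.19 (adjusted p = 0.00274, limma). At 30 min the gene had been called below water with both elicitors, at 4.02, 9.53 and 7.82 FPKM with chitin and 3.15, 8.42 and 9.59 FPKM with flg22, and the change of the difference between the times was 1.92 ± 0.50 (adjusted p = 0.0373).

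APK2 (Bra017872), a kinase that supplies the activated sulfate used in the last step of the glucosinolate core, had 113, 97.5 and 57.1 FPKM with chitin and 17.6, 28.6 and 19.9 FPKM with flg22, with 5.53 to 25 FPKM in water. Its difference was 1.94 ± 0.28 (adjusted p = 0.0066). UGT74B1 (Bra024634), the glucosyltransferase of the step before, had 329, 294 and 220 FPKM with chitin and 134, 172 and 150 FPKM with flg22, both above the water range of 31.7 to 122 FPKM. It differed by 0.87 ± 0.18 (adjusted p = 0.0184, limma), short of 2-fold, and the adjusted p was 0.0789 without chitin replicate 2, 0.0752 without flg22 replicate 1, 0.0674 without flg22 replicate 3 and 0.144 with all 23 libraries in the fit. Of the 3 genes, UGT74B1 alone had every flg22 library above every water library.

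**Figure D4:**
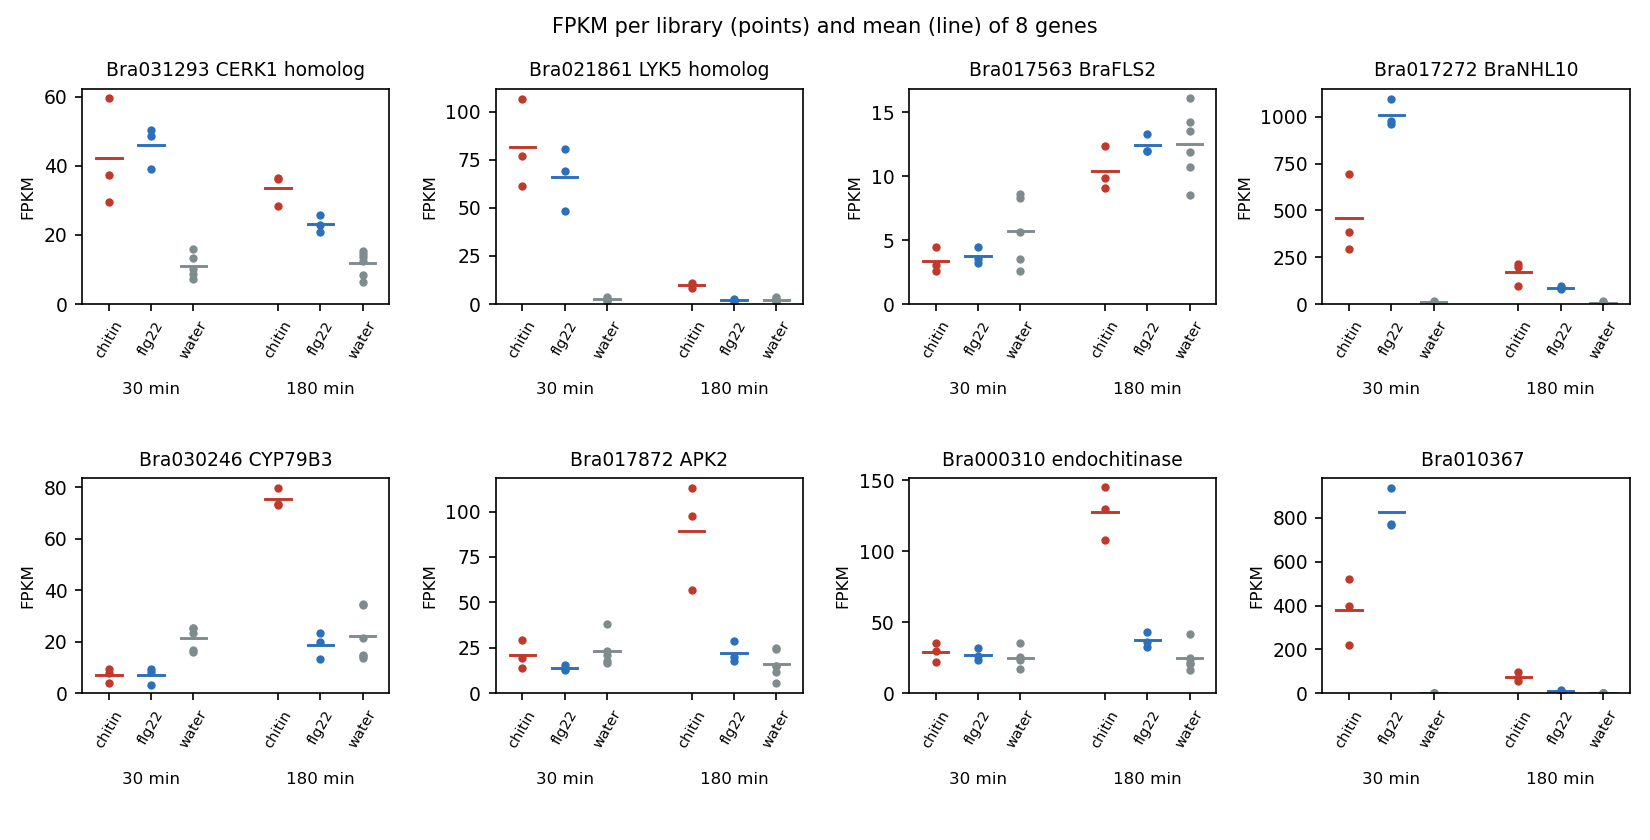
FPKM per library (points) and group mean (line) of 8 genes named by the study, with chitin in red, flg22 in blue and water in grey at 30 and at 180 min. LYK5, BraNHL10 and Bra010367 are highest at 30 min with both elicitors, while CYP79B3, APK2 and the endochitinase are highest with chitin at 180 min.

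Among the other genes named by the study, the primers used for qPCR are the member sequences given in the sources used here, and they are shown for 3 genes called higher with chitin because they identify the transcripts measured. The coordinates are those of the gene in the v1.5 build, and each primer is written 5′ to 3′.
Bra010367 forward, gene at A08 13373824 to 13374042: atggtaatcgtggcgttgtt
Bra010367 reverse: ccaaacgctgaaaccaaaa
Bra000310 forward, gene at A03 10496406 to 10497525: gcgttctttgctcacgtcac
Bra000310 reverse: gttccaggagagctggatcg
Bra017219 forward, gene at A04 16058827 to 16059999: actcaccgggaggaagatca
Bra017219 reverse: acgacacctggacaatgcag

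Bra010367, a short gene to which the study gives no name, had the largest difference of the genes it names. It reached 68.7, 98.9 and 57.2 FPKM with chitin, against 16.3, 8.43 and 5.39 FPKM with flg22 and 0.666 to 2.35 FPKM in water, a difference of 2.87 ± 0.37 (adjusted p = 0.00478, limma). Both elicitors were thus still above water at 180 min, chitin by more. At 30 min the order was the other way round, with 523, 399 and 222 FPKM with chitin and 934, 773 and 767 FPKM with flg22. The change of the difference between the times was 4.06 ± 0.52 (adjusted p = 0.00248), while the difference at 30 min alone did not pass (adjusted p = 0.143).

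The endochitinase gene Bra000310, which encodes an enzyme that cleaves chitin, had 108, 130 and 145 FPKM with chitin, against 35.8, 32.7 and 43.1 FPKM with flg22 and 16.4 to 41.6 FPKM in water. The difference was 1.75 ± 0.15 (adjusted p = 0.00255, limma). Unlike Bra010367, it was late: at 30 min it had 35.1, 29.7 and 22.2 FPKM with chitin and 32.0, 26.0 and 23.3 FPKM with flg22, close to water (difference from water 0.21 with chitin, adjusted p = 0.43, and 0.13 with flg22, adjusted p = 0.628). S-adenosylmethionine synthase 3 (Bra017219), an enzyme that makes the methyl donor of the cell, had 193, 198 and 86.5 FPKM with chitin and 63.3, 75.5 and 58.8 FPKM with flg22. The libraries of both elicitors lay above the water range of 10.4 to 41.7 FPKM. Chitin replicate 3 stood closer to the flg22 libraries than to the other chitin libraries. The difference of 1.18 ± 0.31 passed narrowly (adjusted p = 0.0403), and the adjusted p ranged over 0.0684 to 0.137 when any library other than chitin replicate 3 was left out, and was 0.0997 with all 23 libraries in the fit.

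BraNHL10 (Bra017272), the homolog of an Arabidopsis gene used as a marker of early PTI, had 200, 213 and 93.9 FPKM with chitin, against 94.3, 84.4 and 79.8 FPKM with flg22 and 3.12 to 17.5 FPKM in water. Chitin replicate 3 lay within the range of the flg22 libraries. The difference of 0.88 ± 0.30 did not pass (adjusted p = 0.0781), and without chitin replicate 3 it was 1.26 (adjusted p = 0.00349). At 30 min the marker had 697, 383 and 294 FPKM with chitin, against 961, 1094 and 977 FPKM with flg22 (adjusted p = 0.114), and the difference changed by 2.11 ± 0.47 between the times (adjusted p = 0.0201, limma).

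The remaining genes named by the study did not share this direction. Bra020747 was lower with chitin, at 4.79, 6.36 and 10.0 FPKM, against 12.6, 17.1 and 12.7 FPKM with flg22 (-0.95 ± 0.25, adjusted p = 0.0365, and 0.0881 to 0.123 without any 1 of chitin replicate 2 or the 3 flg22 replicates). Bra009738 differed by -0.67 ± 0.26 (adjusted p = 0.108, and 0.0187 without chitin replicate 3), far below water in both groups. It had 0.607, 1.13 and 2.22 FPKM with chitin and 2.15, 2.43 and 3.11 FPKM with flg22, against 45.3 to 124 FPKM in water. Bra031321 was high with both elicitors, at 133, 145 and 103 FPKM with chitin and 143, 160 and 98.7 FPKM with flg22, against 1.12 to 4.98 FPKM in water, and its difference of -0.07 ± 0.21 did not pass (adjusted p = 0.844). The qPCR reference gene BraEF1alpha (Bra006661), a translation elongation factor, differed by -0.29 ± 0.11 (adjusted p = 0.0968, limma). Of the 23 genes the study names, 19 were tested, 6 were called higher with chitin and 0 lower at 2-fold in limma, and 11 were higher and 1 lower at an adjusted p under 0.05 alone. Over all tested genes these shares were 3.16% and 3.17% at 2-fold and 7.99% and 12.5% without it. The count joins receptors chosen by homology, of which 8 were tested and 1 was called, with genes named from these libraries. It also holds BraNHL10 and BraEF1alpha, which were not named from these libraries.

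The 10 largest differences in each direction were taken from called genes without overlap and with a mean of at least 10 FPKM in the higher group. In the 10 higher genes the differences were 2.93 to 3.33 on the log2 scale, with adjusted p-values in limma of 0.000912 to 0.012. Bra011029 (A01, 4347623 to 4347844) led them with 33.8, 54.4 and 29.6 FPKM with chitin, against 5.90, 2.85 and 1.19 FPKM with flg22 and 0.507 to 3.08 FPKM in water (3.33 ± 0.42, adjusted p = 0.00454). At 30 min it had 330, 295 and 153 FPKM with chitin and 472, 462 and 670 FPKM with flg22. The flg22 libraries thus lay above the chitin libraries at 30 min, a difference that did not pass (adjusted p = 0.188), and below them at 180 min, and the change of the difference was 4.42 ± 0.57 (adjusted p = 0.00248, limma).

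In 6 of the 10 the flg22 mean lay above the chitin mean at 30 min, a share near that of all tested genes (50.8%). Of the 10, 7 were called above water with chitin at 30 min and 8 with flg22, close to the shares of all higher genes. The interaction, which shares the 180 min libraries with the choice of the 10, was called in 9. Bra039193 had 115, 79.8 and 58.6 FPKM with chitin and 224, 169 and 236 FPKM with flg22 at 30 min. At 180 min it had 11.6, 24.6 and 12.0 FPKM with chitin, against 1.91, 0.549 and 0.813 FPKM with flg22 and 0.131 to 1.66 FPKM in water, so flg22 was back at the water level. Bra013790 had 92.8, 114 and 76.5 FPKM with chitin, against 19.9, 9.40 and 5.75 FPKM with flg22 at 180 min, and 574, 288 and 322 FPKM with chitin, against 710, 573 and 598 FPKM with flg22 at 30 min.

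Other genes of the 10 followed another course. Bra011752 had its highest chitin values at the later time, 33.3, 43.5 and 31.1 FPKM at 180 min (21.9, 15.1 and 11.1 FPKM at 30 min), while with flg22 it had 5.04, 5.04 and 1.75 FPKM at 180 min and 49.6, 40.5 and 29.0 FPKM at 30 min. Bra011590 had 36.8, 33.5 and 48.0 FPKM with chitin, against 2.74, 2.95 and 3.56 FPKM with flg22, at the low end of the water range of 2.68 to 16.2 FPKM. Its difference of 3.30 ± 0.16 had the lowest adjusted p of the 10 (0.000912). Bra014635 was the most abundant of them, at 273, 383 and 802 FPKM with chitin, against 34.8, 53.6 and 71.1 FPKM with flg22 and 49.1 to 190 FPKM in water, with every flg22 library under the water median of 92.8 FPKM.

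In 9 of the 10 all chitin libraries lay above every water library, in 2 all flg22 libraries did, and in 9 the difference between the elicitors was larger than the range of the water libraries. The exception was Bra040520, with 8.62, 35.1 and 31.8 FPKM with chitin and 3.50, 0.953 and 1.18 FPKM with flg22. Its water libraries had 6.08, 2.23 and 0.560 FPKM (Sample 3, 11 and 19) and 4.43, 83.2 and 45.3 FPKM (Sample 7, 15 and 23). At 30 min the gene had 43.2, 69.3 and 128 FPKM with chitin and 38.3, 4.27 and 1.27 FPKM with flg22. That was a difference of 3.25 (adjusted p = 0.114, limma), and the change between the times was -0.17 ± 1.24 (adjusted p = 0.948). The adjusted p of Bra040520 at 180 min was 0.012, and 0.0568 without chitin replicate 2, 0.0509 without flg22 replicate 3 and 0.143 with all 23 libraries in the fit. The other 3 of the 10, Bra003642, Bra033972 and Bra015475, had 9.06 to 27.3 FPKM with chitin and 0.553 to 2.45 FPKM with flg22.

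**Figure D5:**
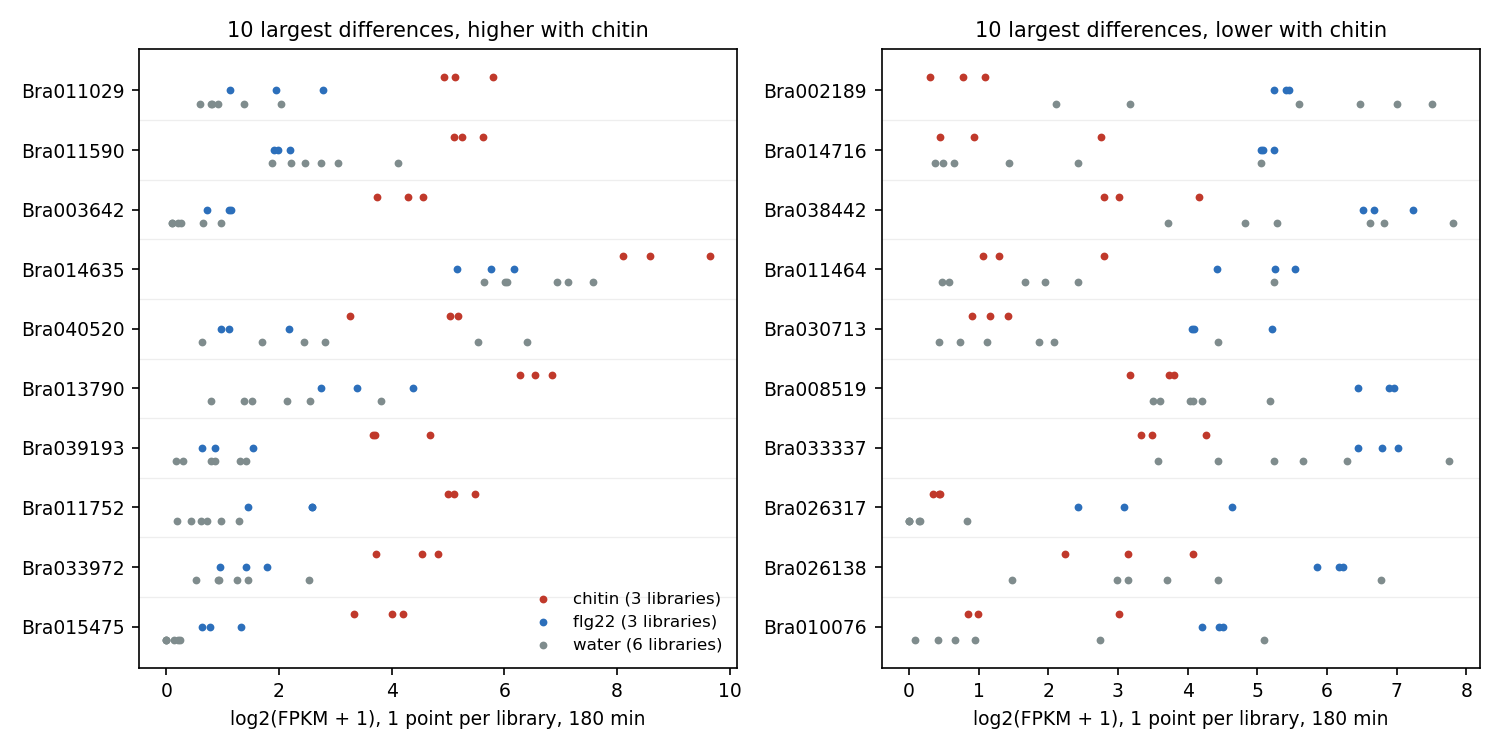
Level per library at 180 min, as log2(FPKM + 1), of the 10 genes with the largest differences in each direction. Chitin is in red above flg22 in blue and water in grey; in the left panel the water points of 9 genes lie below the chitin points, whereas in the right panel the water points of many genes run from the chitin level to the flg22 level.

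In the 10 genes that were most lower with chitin the differences were -2.77 to -4.64 on the log2 scale, with adjusted p-values of 0.000697 to 0.0156 in limma. In all 10 the flg22 mean lay above the chitin mean at 30 min too, against 50.8% of all tested genes. The difference at 30 min ran from -2.18 (Bra038442, adjusted p = 0.0832, limma) to 0.04 (Bra008519, adjusted p = 0.973). None of the 10 passed at 30 min. The interaction, which shares the 180 min libraries with the choice of the 10, was called in 6. Bra002189 (A10, 11056975 to 11060035) had 1.14, 0.237 and 0.709 FPKM with chitin, against 36.8, 41.4 and 43.1 FPKM with flg22 (-4.64 ± 0.20, adjusted p = 0.000697). Its water libraries had 87.6, 128 and 180 FPKM (Sample 3, 11 and 19) and 47.2, 8.05 and 3.32 FPKM (Sample 7, 15 and 23), so all lay above the chitin libraries, the first 3 and Sample 7 also above every flg22 library, and Sample 15 and 23 between chitin and flg22. It was the one gene of the 10 with all chitin libraries below all water libraries.

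Bra008519 (A02, 15155724 to 15157563) was above water with flg22 at 180 min (2.66 on the log2 scale, adjusted p = 2.19e-05, limma) and not with chitin (-0.53, adjusted p = 0.255). It had 8.00, 12.9 and 12.3 FPKM with chitin, against 123, 118 and 85.7 FPKM with flg22 and 10.3 to 35.4 FPKM in water. The flg22 libraries lay far above all others, and at 30 min there was no such gap, with 1.63, 5.91 and 4.29 FPKM with chitin and 1.88, 2.52 and 7.78 FPKM with flg22. The difference at 180 min was -3.19 ± 0.21 (adjusted p = 0.00149) and its change between the times -3.23 ± 0.59 (adjusted p = 0.00911, limma). Bra026317, likewise above water with flg22 (3.19, adjusted p = 5.91e-06), had 0.363, 0.355 and 0.266 FPKM with chitin, against 7.53, 4.39 and 23.9 FPKM with flg22 and 0 to 0.782 FPKM in water.

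For most of the 10 lower genes the water libraries did not give a stable level. The difference between the elicitors was larger than the range of the 6 water libraries in 2 of the 10, and in 9 of the 10 the highest water library was the one titled Sample 19. In Bra038442, with 5.94, 7.11 and 17.0 FPKM with chitin, against 90.8, 101 and 150 FPKM with flg22, the water libraries had 97.6, 112 and 222 FPKM (Sample 3, 11 and 19) and 38.0, 12.1 and 27.3 FPKM (Sample 7, 15 and 23). As in Bra002189, each of the first 3 water libraries exceeded each of the others, a gap of the same direction as that between flg22 and chitin. Bra014716 had 5.76, 0.369 and 0.914 FPKM with chitin, against 32.7, 36.9 and 32.3 FPKM with flg22. In water it had 0.294 to 32.1 FPKM with a median of 1.13, and library Sample 19 alone was near the flg22 level. Bra010076 had 7.10, 0.995 and 0.799 FPKM with chitin, against 17.5, 21.8 and 20.9 FPKM with flg22 and 0.0603 to 33.0 FPKM (median 0.758) in water. Its adjusted p of 0.0156 became 0.0696 without chitin replicate 2 and 0.0537, 0.052 and 0.0594 without flg22 replicate 1, 2 and 3. The other 4, Bra011464, Bra030713, Bra033337 and Bra026138, had 0.875 to 18.3 FPKM with chitin and 15.7 to 128 FPKM with flg22. The part of the spread among water libraries in these differences was not tested.

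The most abundant called genes showed smaller differences. Among those higher with chitin, Bra002914 had 2826, 2153 and 2703 FPKM with chitin and 904, 1176 and 1175 FPKM with flg22 (1.24 ± 0.22, adjusted p = 0.0118, and 0.0649 without flg22 replicate 1), with 255 to 1210 FPKM in water. Bra008132 had 2848, 2637 and 1911 FPKM with chitin and 1233, 1174 and 991 FPKM with flg22 (1.11 ± 0.23, adjusted p = 0.0196, limma). Bra025367 had 2345, 1972 and 1341 FPKM with chitin and 734, 959 and 674 FPKM with flg22, both far above the water range of 34.0 to 197 FPKM (1.23 ± 0.26, adjusted p = 0.021). The adjusted p of Bra008132 was 0.081 without chitin replicate 2 and 0.0699, 0.0643 and 0.0802 without flg22 replicate 1, 2 and 3, and that of Bra025367 was 0.0847 without chitin replicate 2, 0.0858 without flg22 replicate 1 and 0.082 without flg22 replicate 3. With all 23 libraries in the fit the adjusted p was 0.0503 for Bra002914, 0.177 for Bra008132 and 0.184 for Bra025367.

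Among the abundant genes lower with chitin, Bra000377 had 558, 1009 and 371 FPKM with chitin and 1706, 1668 and 2281 FPKM with flg22 (-1.65 ± 0.37, adjusted p = 0.023), with 1120 to 3670 FPKM in water. Bra005522 had 996, 726 and 594 FPKM with chitin and 1562, 1579 and 1546 FPKM with flg22 (-1.05 ± 0.22, adjusted p = 0.0205). Bra011179 had 764, 421 and 333 FPKM with chitin and 1320, 1364 and 1544 FPKM with flg22 (-1.56 ± 0.31, adjusted p = 0.0159, limma). In Bra005522 and Bra011179 the water libraries ran over 415 to 1650 FPKM and 292 to 1530 FPKM, from below the chitin libraries to the flg22 level. The adjusted p of these 3 genes rose past 0.05 when single libraries were left out: to 0.0714, 0.0594 and 0.0827 for Bra000377 without flg22 replicate 1, 2 and 3, to 0.0862, 0.0763, 0.0661 and 0.0687 for Bra005522 without chitin replicate 2 and flg22 replicate 1, 2 and 3, and to 0.0741, 0.0565 and 0.0617 for Bra011179 without chitin replicate 2, flg22 replicate 1 and flg22 replicate 3. With all 23 libraries in the fit it was 0.212 for Bra005522 and 0.177 for Bra011179.

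The largest changes of the difference between the times were those of Bra032177 and Bra011029 upward and of Bra004581 and Bra008519 downward. Bra032177 had 161, 160 and 93.0 FPKM with chitin and 457, 454 and 633 FPKM with flg22 at 30 min, and 13.6, 25 and 9.41 FPKM with chitin and 3.44, 1.44 and 0.522 FPKM with flg22 at 180 min, a change of 4.55 ± 0.57 (adjusted p = 0.00248, limma). The groups did not overlap at either time and stood in opposite order, though the difference at 30 min alone did not pass (adjusted p = 0.0725, limma). Bra004581 had 1.88, 2.51 and 1.70 FPKM with chitin and 0.270, 0.154 and 0.735 FPKM with flg22 at 30 min, and 1.23, 1.17 and 1.73 FPKM with chitin and 13.8, 5.29 and 18.9 FPKM with flg22 at 180 min (-3.52 ± 0.48, adjusted p = 0.00282). Here the chitin libraries were low at both times, and the flg22 libraries lay under them at 30 min and over them at 180 min. The difference of Bra004581 at 30 min alone did not pass either (adjusted p = 0.136, limma).

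In 2 genes called higher with chitin, singled out after their values were seen, all 3 flg22 libraries were listed at 0. Bra040064 had 4.90, 6.52 and 7.67 FPKM with chitin and 0 to 9.52 FPKM in water, and Bra035694 had 1.39, 1.47 and 1.59 FPKM with chitin and 0 to 1.19 FPKM in water. A listed 0 can be a failed estimate in these files, since 18 values among the 6 libraries were 0 where the median of their group was at least 10 FPKM.

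Called genes were found on all 10 chromosomes, from 2.49% of the tested genes higher with chitin on A10 to 4.11% on A01, and from 2.52% lower on A03 to 4.26% on A05. The higher genes were short, with a median span of 1261.5 bp, against 1742 bp for all tested genes, and the lower genes had a median span of 1862 bp. Neighbours were taken among all 41020 genes in order of position, tested or not. Of the higher genes, 94 (13.5%) lay directly beside another called in the same direction, in 51 adjacent pairs of which 35 were on the same strand. Of all tested genes 3.59% lay beside a higher gene. Of the lower genes 51 (7.32%) did so, in 26 pairs, against 3.57% of all tested genes beside a lower gene.

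The longest runs held 4 genes. Bra016253 to Bra016250 on A07 (21920371 to 21929606) had means of 109, 823, 29.2 and 216 FPKM with chitin, against 46.8, 320, 12.8 and 70.4 FPKM with flg22, all on the minus strand. Bra013676 to Bra013679 on A01 (7072802 to 7089660) had 3.26, 5.48, 33.2 and 6.27 FPKM with chitin, against 0.687, 0.510, 4.37 and 2.10 FPKM with flg22. Another run was that of Bra012270, Bra012269 and Bra012268 on A07, with 168, 691 and 82.4 FPKM with chitin, against 63.2, 232 and 21.5 FPKM with flg22. Neighbours can be near-identical copies that share reads, and values of single genes in a run are uncertain where they do.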

How the data were processed

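RNA of the leaf discs was sequenced from stranded mRNA libraries. Per the labels and the methods of the study, the authors trimmed reads with Trimmomatic (0.36), mapped them with HISAT2 to the B. rapa v1.5 build and ran StringTie (2.0). They deposited for each library the FPKM of 41020 genes, relative to gene length and library total, the TPM, scaled to a fixed sum, and the coverage, a signal per base. DESeq2 is named among their tools, and read counts were not used here. The FPKM table was tested, TPM was an alternative, and the ratio of coverage to FPKM gave the aligned bases.

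Groups came from the labels. Genes with FPKM of at least 1 in at least 3 of the 6 libraries were fitted as log2(FPKM + 1) in limma (3.58.1, R 4.3.3) with a mean-variance trend, the 6 libraries alone and no block. A fold change on this scale understates the change of low genes. The interaction used 12 libraries and the differences from water all 23, a fit added after the data were seen. All p-values of single genes were adjusted over 21978 genes (Benjamini-Hochberg). The code was tested on simulated data. Members and lists were chosen with earlier results of these data known. Named genes are those the study names by identifier, the 10 largest differences and the 3 most abundant called genes in each direction (called, no overlap, the 10 largest also with a mean of at least 10 FPKM in the higher group), and the 2 largest interactions in each direction. Lists by product name were not run, since 1 of the 41020 identifiers matched the gene name table used here.

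The main fit had no block because the study's methods describe none. Over all tested genes, same-numbered chitin and flg22 replicates did not deviate together from their group means (correlations -0.13, -0.01 and 0.19). That does not exclude a pairing in single genes: the SE of Bra014635 was 0.418 without a replicate block and 0.164 with it. Alternatives were a pseudocount of 0.1, no filter, a mean of at least 5 FPKM, all 23 libraries, a replicate block, median-ratio scaling, TPM, each library left out, other thresholds and differences of responses to water.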

Additional observations from a re-analysis of the deposited data

Results flagged for a closer look

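Among 47 tested genes that the text names, 14 had 1 water library at 180 min that stood apart from the other 5 by Dixon's test at the 95% level. For independent, normally distributed values chance flags about 1 gene group in 20. Here untransformed FPKM was used and all genes share the same water libraries, which come from separate sets. The count therefore cannot be set against that rate. In 8 of the 14 it was the library titled Sample 19, at 32.1 FPKM for Bra014716, 36.7 FPKM for Bra011464, 20.7 FPKM for Bra030713, 215 FPKM for Bra033337, 0.782 FPKM for Bra026317, 108 FPKM for Bra026138, 33.0 FPKM for Bra010076 and 4.98 FPKM for Bra031321. In 5 it was library Sample 7, at 41.6 FPKM for the endochitinase Bra000310, 16.2 FPKM for Bra011590, 13.0 FPKM for Bra013790, 4.77 FPKM for Bra033972 and 3.47 FPKM for Bra032177, and in 1 it was library Sample 11, at 35.4 FPKM for Bra008519.

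In 27 of the 47 genes the chitin minus flg22 difference differed between 180 and 30 min at an adjusted p under 0.05 in limma. Of the genes named by the study these were the LYK5 homolog Bra021861 (1.61 on the log2 scale), the LORE homolog Bra031434 (0.96), BraNHL10, Bra017272 (2.11), CYP79B3, Bra030246 (1.92), the endochitinase Bra000310 (1.67), Bra010367 (4.06) and Bra020747 (-1.28). Of the 10 largest higher genes they were Bra011029 (4.42), Bra011590 (3.85), Bra003642 (3.01), Bra014635 (2.31), Bra013790 (3.78), Bra039193 (4.35), Bra011752 (4.25), Bra033972 (2.95) and Bra015475 (4.14). Of the 10 largest lower genes they were Bra002189 (-3.05), Bra030713 (-2.98), Bra008519 (-3.23), Bra033337 (-2.43), Bra026317 (-2.50) and Bra010076 (-2.69). The 3 abundant higher genes Bra002914 (1.58), Bra008132 (2.00) and Bra025367 (1.78) and the genes Bra032177 (4.55) and Bra004581 (-3.52) complete the list. The difference moved toward chitin with time in 19 of the 27 and toward flg22 in 8. Apart from the genes named by the study, the 47 were picked by their call at 180 min or by the interaction itself. The interaction shares the 180 min libraries, so these counts follow largely from the choice and add no support. Over all tested genes the interaction was called at 2-fold in 3.41% toward chitin and 3.12% toward flg22.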

How the results depend on the processing

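Leaving out 1 of the 6 libraries gave 404 (without chitin replicate 2) to 891 (without chitin replicate 1) higher genes and 414 (without chitin replicate 2) to 950 (without chitin replicate 3) lower genes, with 442 and 459 lower genes without flg22 replicates 1 and 3. The interaction was called in 804 to 2634 genes when 1 of 12 libraries was left out, and in 2523 at an unadjusted p. Without a fold threshold 1756 genes were higher and 2752 lower, and at 4-fold 84 and 57. As a difference of responses, each elicitor with 3 of the 6 water libraries, the counts over the 8 possible divisions ran over 6 to 1115 higher and 10 to 1249 lower genes, with 40 and 35 where Sample 7, 15 and 23 went with chitin and Sample 3, 11 and 19 with flg22. The labels do not give the division. With a replicate block 646 genes were higher and 650 lower, and the block took Bra000377 (adjusted p = 0.0518), Bra002021 (0.0564) and Bra020747 (0.0546) past 0.05 in limma. The counts stayed within 1.5 times under a pseudocount of 0.1, no filter, a stricter filter, all 23 libraries, median-ratio scaling, TPM and an unadjusted p. With all 23 libraries in the fit 12 named genes nevertheless lost their adjusted p under 0.05 (Bra031293, Bra002021, Bra009660, Bra031434, Bra024634, Bra017219, Bra040520, Bra002914, Bra008132, Bra025367, Bra005522 and Bra011179, at 0.0503 to 0.239).

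Outside the differences of responses to water, Bra031321 was the only named gene whose direction turned. Near 0 throughout, it had 0.058 with median-ratio scaling and -0.27 to 0.077 when 1 library was left out (above 0 without chitin replicate 3 or flg22 replicate 2). For the differences of responses, 10 values turned. The division of the water libraries was picked for each gene on its own, so the values need not share a division. At its lowest value, Bra031293 had -0.13, Bra017272 -0.50, Bra024634 -0.15, Bra040520 -0.25, Bra002914 -0.15, Bra008132 -0.28 and Bra025367 -0.38. At the highest value of each gene, Bra017563 had 0.11, Bra031321 0.55 and Bra006661 0.37. The causes were not tested. With 3 libraries a group, genes near 1 FPKM and differences under 2-fold are the least certain.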
